A study of Sus scrofa with 20 samples.

Results

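The comparison set the 7 longissimus muscle arrays with the highest immediate early score against the 7 with the lowest, out of 20 arrays from female pigs. The members were chosen by measured values: each gene was read from its probe set of highest mean, its log2 signal was regressed on the array's mean signal of 69 background control probe sets, and the score of an array was the mean deviation of FOS, JUNB and ATF3 from that line. EGR1, the other gene meant for the score, had no annotated probe set here, so 3 of 4 genes made it up. The high score group held 4 pigs of low and 3 of high residual feed intake (RFI), and the low score group likewise held 4 and 3, so that 14 of the 20 arrays entered the comparison and 6 arrays lay between.

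FOS, JUNB, ATF3 and EGR1 are immediate early genes: their transcription starts within minutes of a stimulus from factors already present in the cell and needs no new protein. FOS and JUNB encode partners in the AP-1 transcription factor, and ATF3 is a related leucine zipper protein induced by many kinds of stress. In skeletal muscle such genes respond to contraction, stretch, injury, stress hormones, cytokines and the handling of tissue, and they are followed by feedback inhibitors that shut the signal down and by secreted proteins that act on neighbouring cells.

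The study profiled muscle of 10 low RFI and 10 high RFI females, where RFI is the feed eaten beyond what growth and maintenance predict, so that low RFI pigs are the feed-efficient ones. Total RNA was labelled with biotin and hybridised to 1-colour Affymetrix arrays, and the labels give no treatment, breed, age, litter or sampling time. The score groups are a reading of these arrays, and no stimulus of immediate early genes is named in the labels. Each array is taken as 1 animal.

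Gene values are log2 signals adjusted for the array's background, and a difference of 1 on this scale is a 2-fold difference in signal. The array means, correlations and control signals of this paragraph are from the values as deposited. Array means lay between 3.33 and 3.35, and correlations between arrays between 0.916 and 0.978. The background signal was 3.48 to 3.89 in the high score group and 3.49 to 3.90 in the low score group, with a mean of 3.64 over all arrays. Labelling controls read 8.27 to 9.31 in the high score group, against 8.28 to 8.83 in the low score group, and hybridisation controls 3.58 to 4.32 against 3.57 to 4.03. In whole muscle RNA, fewer cells of a type and less RNA per cell cannot be told apart.

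The score lay between 0.26 and 0.68 in the high score group (median 0.40), between -0.04 and 0.23 in the 6 arrays between, and between -0.77 and -0.19 in the low score group (median -0.42). The step at the upper edge was small: low RFI replicate 8 entered the high score group with 0.26, while high RFI replicate 7 stayed outside with 0.23. At the lower edge low RFI replicate 7 was inside with -0.19 and low RFI replicate 4 outside with -0.04. Low RFI pigs had scores of -0.77 to 0.44 and high RFI pigs -0.74 to 0.68, so both feed efficiency groups covered nearly the whole range.

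FOS had a lowest, median and highest log2 signal of 8.65, 8.77 and 9.28 in the high score group and of 7.22, 8.63 and 8.95 in the low score group, a difference in means of 0.59. The FOS medians were close and the groups overlapped, with 2 arrays of the low score group, high RFI replicates 1 and 2, far below the rest. JUNB had 7.003, 7.47 and 8.07 in the high score group and 5.82, 6.29 and 6.78 in the low score group, a difference of 1.20 with no overlap. ATF3 had 10.36, 11.05 and 11.11 in the high score group and 8.44, 10.48 and 11.001 in the low score group, a difference of 0.89. Most of that ATF3 distance came from low RFI replicate 5 at 8.44 and high RFI replicate 10 at 9.16, while other arrays of the low score group reached the level of the high score group. These values chose the members and carry no test. As the strips of the 3 genes show, JUNB alone separated the groups.

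**Figure D1:**
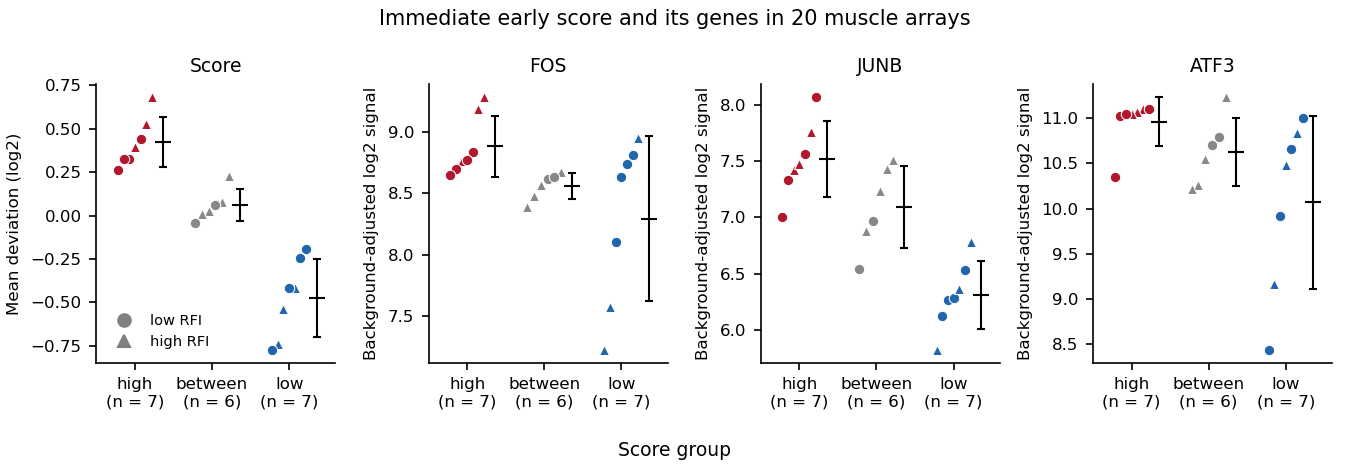
Immediate early score (mean log2 deviation of FOS, JUNB and ATF3) and the background-adjusted log2 signal of each score gene in the 7 high score arrays (red), the 6 arrays between (grey) and the 7 low score arrays (blue). Circles are low RFI and triangles high RFI pigs, and bars give the group mean and SD; JUNB spans 7.003 to 8.07 in the high score group against 5.82 to 6.78 in the low score group, whereas FOS and ATF3 overlap.

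The 3 score genes followed each other only loosely over the 20 arrays, which limits how far the score can be called 1 response. FOS and JUNB had a Pearson r of 0.415 (permutation p = 0.0678, adjusted over the 3 pairs 0.203) and a Spearman rho of 0.319 (permutation p = 0.172, adjusted 0.215), and r was 0.280 without the 2 arrays of most extreme FOS. JUNB and ATF3 had an r of 0.307 (permutation p = 0.194, adjusted 0.291) and a rho of 0.290 (permutation p = 0.215, adjusted 0.215). Their r was 0.403 without the 2 arrays of most extreme JUNB. FOS and ATF3 had an r of -0.056 (permutation p = 0.803, adjusted 0.803) and a rho of 0.292 (permutation p = 0.214, adjusted 0.215). Their r was -0.0058 without the 2 arrays of most extreme FOS. The 2 arrays of lowest ATF3 stayed in for all 3 pairs. None of the 3 pairs passed after adjustment.

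Each score gene was then read in groups of 7 and 7 arrays set by the other 2 genes alone. JUNB averaged 7.35 ± 0.31 in the high and 6.68 ± 0.61 in the low group set by FOS and ATF3 (SD, n = 7 each), a difference of 0.67 (2-sided exact permutation p = 0.0251, adjusted over the 3 genes 0.0752). FOS differed by 0.38 between groups set by JUNB and ATF3 (exact permutation p = 0.0967, adjusted 0.145), and ATF3 by 0.44 between groups set by FOS and JUNB (exact permutation p = 0.150, adjusted 0.150). All 3 were higher on average in the group that the others set high, and none passed after adjustment. With 7 arrays per group, tests that did not pass cannot decide whether the label of a high or low immediate early response holds. That label is not used here, and the groups are called high score and low score.

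Among 12203 other genes tested, 187 (1.53%) differed between the score groups at a limma adjusted p under 0.05, of which 125 (1.02%) were higher and 62 (0.508%) lower in the high score group. At an unadjusted p under 0.05 there were 1769 genes, where 610 would pass by chance. The high and low score groups did not overlap for 87 genes on the higher side (0.713%) and 22 on the lower side (0.18%). Of all tested genes 6193 (50.7%) had a positive difference and the median was 0.0026, which does not bear on a general shift, since the deposited arrays had nearly equal means. The median difference was 0.69 among the called higher genes and -0.60 among the called lower genes, and the 95% interval of a typical gene reached 0.27 to either side. The groups were set by the signal of 3 genes, so each p-value measures how far another gene followed that signal over these 14 pigs, not the effect of a stimulus. The count depended on the score: limma called 1 gene with groups set without JUNB, 14 without FOS and 56 without ATF3, and 34, all higher, from values without the background adjustment. It was 3 in groups of 7 drawn from the 16 arrays left without the 4 of highest background, 96 without the 2 arrays of lowest ATF3, and 114, 115, 121, 123 and 123 when high RFI replicates 2 or 9 or low RFI replicates 5, 1 or 8 were left out.

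**Figure D2:**
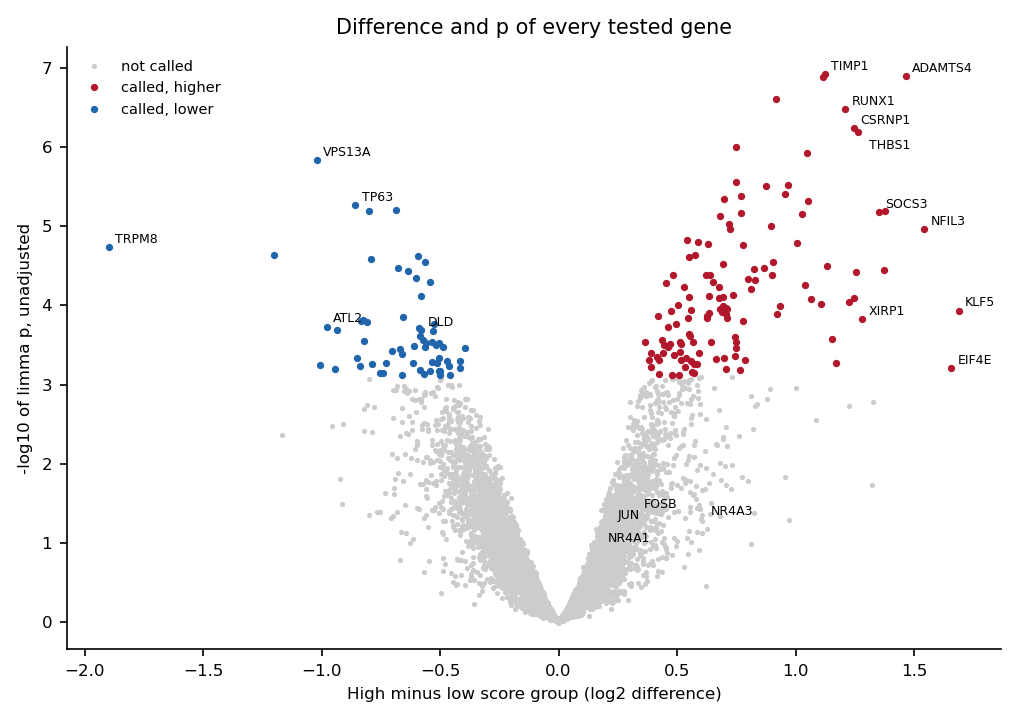
Difference in log2 signal, high minus low score group (x axis), against -log10 of the unadjusted limma p (y axis) for the 12203 tested genes. The 125 genes called higher are red, the 62 called lower blue and the rest grey; ADAMTS4, NFIL3 and KLF5 lie far to the right, while JUN, FOSB, NR4A1 and NR4A3 lie among the genes that were not called.

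Immediate early transcription factors leaned one way but few passed: 27 of the 28 tested were higher in the high score group, 5 were called, all of them higher (17.9%, against 1.02% of all genes), and the median difference was 0.26 against 0.0026 over all genes. Here and below, the lists were chosen with earlier results of these data known. Their shares set against all genes are therefore no independent comparison. CSRNP1, a nuclear protein induced early by growth and stress signals, had 6.87, 7.25 and 7.54 (lowest, median, highest) in the high score group and 5.34, 6.04 and 6.60 in the low score group. Every high score array lay above every low score array, and the difference was 1.25 ± 0.17 (SE, limma adjusted p = 0.0011). A second, dimmer CSRNP1 probe set (mean 4.28 against 6.72) differed by 0.18. CEBPD and CEBPB, leucine zipper factors of the acute phase response, differed by 0.90 ± 0.16 and 0.62 ± 0.12 (limma adjusted p = 0.0082 and 0.0093), again with no overlap. MYC, the growth regulator, differed by 0.80 ± 0.15 (limma adjusted p = 0.010) with overlapping groups. BHLHE40, a repressor that responds to hypoxia and also belongs to the clock, differed by 0.81 ± 0.16 without overlap (limma adjusted p = 0.012).

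Several well known members that were tested were not among the calls, and the score genes themselves were left out of the test. JUN, the main partner of FOS in AP-1, had 8.28, 8.48 and 8.69 in the high score group and 8.04, 8.23 and 8.57 in the low score group, a difference of 0.22 ± 0.11 (limma adjusted p = 0.37). Its ranges overlapped along most of their length, and its 2 probe sets had opposite signs. FOSB differed by 0.55 ± 0.25 (limma adjusted p = 0.32), NR4A1 by 0.18 ± 0.11 (0.48) and NR4A3 by 0.60 ± 0.27 (0.31), the last 2 being orphan nuclear receptors induced by exercise. NR4A2 had a negative difference of -0.12 ± 0.12 (limma adjusted p = 0.72). EGR2 and EGR3, zinc finger factors of the EGR1 family, differed by 0.22 ± 0.16 and 0.24 ± 0.18 (limma adjusted p = 0.60 and 0.61), and both were close to the background signal. KLF4, KLF6 and MAFF differed by 0.28, 0.32 and 0.43 without passing (limma adjusted p = 0.17, 0.28 and 0.085). Apart from EGR2, the genes of this paragraph were chosen after their values were seen, as textbook members of the list.

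Feedback regulators of kinase and cytokine signalling gave 10 calls among 45 on the higher side (22.2%, against 1.02% of all genes) and 1 on the lower side (2.22%, against 0.508%), and the median difference of the list was 0.35. SOCS3, the inhibitor of cytokine receptors that signal through STAT3, had 6.18, 7.23 and 7.88 in the high score group and 5.60, 5.77 and 6.49 in the low score group. A single high score array, low RFI replicate 8 at 6.18, fell within the range of the low score group, and the difference was 1.35 ± 0.22 (limma adjusted p = 0.0036). PPP1R15A, which directs a phosphatase to the initiation factor eIF2alpha, had 6.999, 7.24 and 7.44 in the high score group and 5.95, 6.49 and 6.70 in the low score group, with no overlap and a difference of 0.75 ± 0.11 (limma adjusted p = 0.0029). A second PPP1R15A probe set almost as bright (mean 6.35 against 6.82) differed by 0.35. TRIB1, a pseudokinase that steers C/EBP proteins to degradation, differed by 0.77 ± 0.12 with no overlap (limma adjusted p = 0.0036). DUSP5, a nuclear phosphatase of ERK, differed by 0.90 ± 0.15 (limma adjusted p = 0.0044), and its groups met near 5.41.

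The remaining calls of that list were smaller. ZFP36L1, ZFP36 and NFKBIZ differed by 0.51, 0.77 and 0.58 (limma adjusted p = 0.016, 0.047 and 0.042): the first 2 bind AU-rich messages and speed their decay, and NFKBIZ is a nuclear partner of NF-kappaB. SGK1, a kinase induced by glucocorticoids, differed by 0.56 ± 0.11 (limma adjusted p = 0.017), while SPRY2 and ERRFI1, inhibitors of receptor tyrosine kinases, differed by 0.43 and 0.42 (0.029 and 0.039), all 3 without overlap. DUSP16, a phosphatase of JNK and p38, was lower: it had 5.83, 6.06 and 6.44 in the high score group and 6.31, 6.64 and 6.94 in the low score group, a difference of -0.51 ± 0.12 (limma adjusted p = 0.041). DUSP1, the classic immediate early phosphatase, differed by 0.45 ± 0.13 without passing (limma adjusted p = 0.079), and NFKBIA, the inhibitor of NF-kappaB chosen after its values were seen, by 0.45 ± 0.13 (0.097). The calls of ZFP36, NFKBIZ, ERRFI1, DUSP16 and SPRY2 were each lost without any single one of 11, 11, 11, 9 and 6 of the 14 arrays, with adjusted p of up to 0.099, 0.092, 0.077, 0.090 and 0.067.

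**Figure D3:**
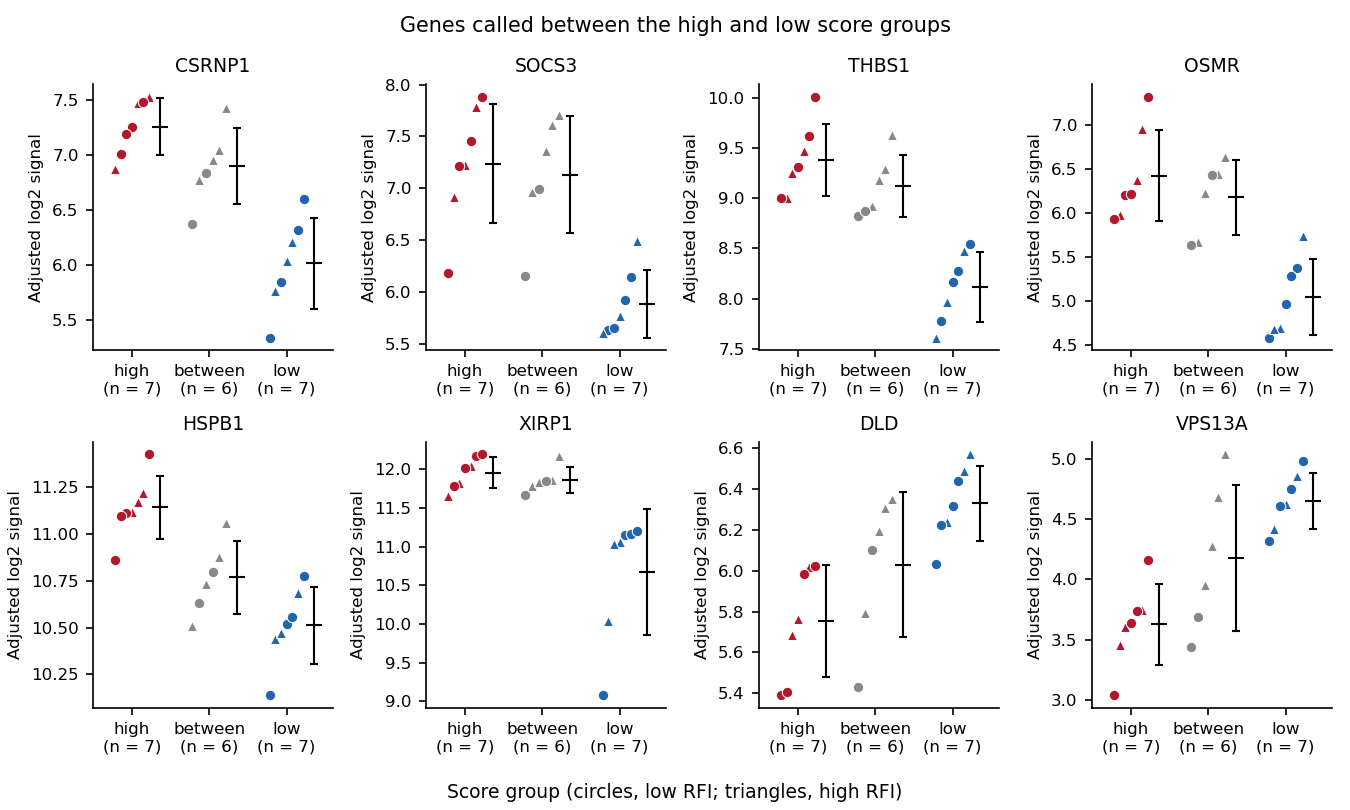
Background-adjusted log2 signal of 8 called genes in the high score arrays (red), the arrays between (grey) and the low score arrays (blue), with group mean and SD. Circles are low RFI and triangles high RFI pigs; CSRNP1, THBS1, OSMR, HSPB1 and XIRP1 lie higher and DLD and VPS13A lower in all 7 high score arrays than in all 7 low score arrays, while 1 high score array of SOCS3 (6.18) overlaps the low score group.

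Secreted immediate early products gave 4 calls among 19, all higher (21.1%, against 1.02% of all genes), while 11 of the 19 had a positive difference and the median was 0.18. THBS1, the matrix glycoprotein thrombospondin 1 that activates latent TGF-beta, had 8.999, 9.32 and 10.01 in the high score group and 7.61, 8.17 and 8.54 in the low score group. The ranges were apart, with a difference of 1.26 ± 0.17 (limma adjusted p = 0.0011), although the second, dimmer probe set of THBS1 had the opposite sign. ADAMTS4, a protease that cleaves aggrecan and versican, had 4.89, 5.60 and 6.32 in the high score group and 3.81, 4.12 and 4.59 in the low score group, a difference of 1.46 ± 0.18 without overlap (limma adjusted p = 0.00053). CSF1, the growth factor of macrophages, differed by 1.13 ± 0.21 (limma adjusted p = 0.0088) and VEGFA, the endothelial growth factor, by 0.71 ± 0.15 (0.018). IL6 and CCL2 had differences of 0.83 ± 0.23 and 0.84 ± 0.23 but did not pass (limma adjusted p = 0.075 and 0.073), and IL6 lay below the background signal. IL6 and CCL2 were chosen after their values were seen.

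In the collagen and matrix list 2 of 28 genes were called, both higher (7.14%, against 1.02% of all genes), and the median was 0.15. TIMP1, the inhibitor of metalloproteinases, ranked top by p: it had 7.35, 7.68 and 8.05 in the high score group and 6.29, 6.50 and 7.14 in the low score group, a difference of 1.12 ± 0.13 (limma adjusted p = 0.00053). TNC, tenascin C, a matrix protein of loaded and injured tissue, differed by 1.05 ± 0.16 (limma adjusted p = 0.0034). Outside that list, SDC4, a heparan sulfate proteoglycan of focal adhesions, differed by 0.88 ± 0.13 (limma adjusted p = 0.0029). None of these 3 genes overlapped between the groups, as held on the higher side for 0.713% of all genes. PLAU, the plasminogen activator urokinase, and CD44, the receptor of hyaluronan, differed by 1.03 ± 0.17 and 0.70 ± 0.14 (limma adjusted p = 0.0036 and 0.017), both chosen after their values were seen.

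In the list of NF-kappaB and inflammation 5 of 25 genes were called, all higher (20%, against 1.02% of all genes), namely PTX3, CEBPB, STAT3, IL6R and IL1R1, and the median was 0.25. OSMR, the receptor of oncostatin M, which is in no list, had 5.93, 6.22 and 7.32 in the high score group and 4.59, 4.97 and 5.74 in the low score group, a difference of 1.38 ± 0.22 without overlap (limma adjusted p = 0.0036), and 3 of its 4 probe sets had this sign. STAT3, which carries the signal of that receptor family into the nucleus, had 8.17, 8.31 and 8.94 in the high score group and 7.66, 7.80 and 7.94 in the low score group, a difference of 0.68 ± 0.13 (limma adjusted p = 0.011). For STAT3 also the ranges were apart. IL6R, the interleukin 6 receptor, differed by 1.06 ± 0.21 (limma adjusted p = 0.014) and PTX3, a secreted pattern recognition protein, by 1.37 ± 0.25 (0.0090). TNFRSF1A, IL4R and IL1R1, the receptors of TNF, interleukin 4 and interleukin 1, differed by 0.72, 0.92 and 0.71 (limma adjusted p = 0.0046, 0.018 and 0.019), and all 3 were chosen after their values were seen. A second, dimmer IL4R probe set (mean 4.34 against 5.61) differed by only 0.022. MAP3K8, the ERK-activating kinase downstream of TNF, was the only call among 25 kinases and factors upstream of immediate early genes (4% higher), with a difference of 0.95 ± 0.15 (limma adjusted p = 0.0034), and that list had a median of 0.00. A second, dimmer MAP3K8 probe set (mean 2.96 against 4.97) had the opposite sign (-0.29).

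Several other regulators called higher belonged to no immediate early list. RUNX1, a transcription factor that rises in denervated and injured muscle, had 6.99, 7.41 and 7.71 in the high score group and 5.59, 6.11 and 6.79 in the low score group, a difference of 1.21 ± 0.15 with no overlap and the same sign in all 4 probe sets (limma adjusted p = 0.0008). NFIL3, a leucine zipper repressor tied to the clock and to cytokines, differed by 1.54 ± 0.26 (limma adjusted p = 0.0046). KLF5, a zinc finger factor of growth and muscle regeneration, differed by 1.69 ± 0.35 (limma adjusted p = 0.017), the largest positive difference among the genes named, but only 4 of its 6 probe sets had that sign. EIF4E, which binds the cap of messenger RNA, had 7.89, 8.05 and 8.98 in the high score group and 4.17, 7.07 and 7.55 in the low score group. Low RFI replicate 5 stood alone at 4.17, the difference was 1.66 ± 0.40 (limma adjusted p = 0.045), and without that array it was 1.25 (limma adjusted p = 0.022). The EIF4E call was lost without any single one of 10 of the 14 arrays, with an adjusted p of up to 0.085. A second EIF4E probe set almost as bright (mean 7.41 against 7.63) differed by 0.37.

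The genes of smallest p also included enzymes and adaptors that stand in none of the lists. DCLRE1B, a nuclease of telomeres and crosslink repair, differed by 1.12 ± 0.13, and ABHD2, a lipid hydrolase, by 0.92 ± 0.11 (limma adjusted p = 0.00053 and 0.00074). KLHL21, a substrate adaptor of a ubiquitin ligase, differed by 0.75 ± 0.10 (limma adjusted p = 0.0015). UCK2, a kinase of pyrimidine salvage, and ALDH1A3, which makes retinoic acid, differed by 1.05 ± 0.15 and 0.97 ± 0.15 (limma adjusted p = 0.0016 and 0.0029). None of these 5 genes overlapped between the high and low score groups, as held on the higher side for 87 of all tested genes (0.713%). The 5 were picked by small p on the same arrays, which favours groups that lie apart.

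Genes known to respond to contraction gave 5 calls among 20, all higher (25%, against 1.02% of all genes), with 14 of 20 positive and a median difference of 0.21. XIRP1, a protein of myotendinous junctions and of damaged sarcomeres, had 11.66, 12.01 and 12.19 in the high score group and 9.08, 11.06 and 11.21 in the low score group. The ranges did not overlap, and the difference was 1.28 ± 0.27 (limma adjusted p = 0.019), with low RFI replicate 5 lowest at 9.08 and high RFI replicate 10 next at 10.04. These are also the 2 arrays of lowest ATF3. Without both, the XIRP1 difference was 0.83 (limma adjusted p = 0.0064), smaller by more than 1.5 times. RRAD, a small GTPase of muscle, differed by 0.87 ± 0.16 (limma adjusted p = 0.0090), ARID5B by 0.93 ± 0.19 (0.016) and MIDN by 0.68 ± 0.14 (0.017). LMCD1, chosen after its values were seen, differed by 0.75 ± 0.17 (limma adjusted p = 0.029). The LMCD1 call was lost without any single one of 8 arrays (limma adjusted p of up to 0.070) and its 2 probe sets had opposite signs. CHAC1, a glutathione-degrading enzyme of the stress response, had the larger difference of 1.33 ± 0.36 but did not pass (limma adjusted p = 0.072).

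In the heat shock list 4 of 28 were called, all higher (14.3%, against 1.02% of all genes), 24 had a positive difference, and the median was 0.20. HSPB1, the small heat shock protein HSP27, had 10.86, 11.12 and 11.42 in the high score group and 10.14, 10.52 and 10.78 in the low score group, a difference of 0.63 ± 0.11 without overlap (limma adjusted p = 0.0061). BAG3 and HSPB8, partners that clear damaged filamin from the Z-disc, differed by 0.82 ± 0.15 and 0.52 ± 0.12 (limma adjusted p = 0.0090 and 0.030), and their groups overlapped. FLNC, the muscle filamin that this machinery handles, had 11.72, 11.89 and 11.94 in the high score group and 10.88, 11.32 and 11.50 in the low score group, a difference of 0.58 ± 0.10 (limma adjusted p = 0.0075). The FLNC ranges were apart, and FLNC was chosen after its values were seen. HSPA2, a member of the HSP70 family, differed by 0.65 ± 0.12 (limma adjusted p = 0.011). The HSPB8 call was lost without any single one of 9 arrays, with an adjusted p of up to 0.070.

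Calls in the other stress lists were all on the higher side, where the share of all genes is 1.02%. In the antioxidant list HMOX1, heme oxygenase 1, was the single call among 20 (5%): it had 6.48, 6.79 and 7.50 in the high score group and 5.49, 6.07 and 6.19 in the low score group, a difference of 1.01 ± 0.17 without overlap (limma adjusted p = 0.0061), while the list median was 0.04. A second HMOX1 probe set of nearly equal brightness (mean 6.56 against 6.58) differed by 0.48. In the hypoxia list 2 of 21 were called (9.52%), VEGFA and the glucose transporter SLC2A1 (0.55 ± 0.12, limma adjusted p = 0.027), and SLC2A1 lost its call without any single one of 6 arrays (up to 0.062). A second, dimmer SLC2A1 probe set (mean 3.93 against 5.38) had the opposite sign (-0.14). Of the glucocorticoid response 2 of 24 were called (8.33%), CEBPD and SGK1, with a median of 0.08, and the muscle ubiquitin ligase TRIM63 did not pass (0.47 ± 0.17, limma adjusted p = 0.20). The clock list had 2 calls among 14 (14.3%), NFIL3 and BHLHE40. No gene was called by limma among 24 of the unfolded protein response (median 0.09), 26 of the interferon response (median -0.11) or 21 of proteasome and atrophy (median -0.07), where 3, 4 and 8 genes had an unadjusted p under 0.05. CEBPB, CEBPD, BHLHE40, SGK1 and VEGFA stand in more than 1 list, so the counts of the lists are not separate pieces of evidence.

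Of the 62 lower genes, 2 stood in the TCA cycle list and 1 each in the feedback and glycogen lists, and the rest in none. No gene was called lower from values as deposited or without the 4 arrays of highest background. VPS13A, which moves lipids between organelles, had 3.04, 3.64 and 4.16 in the high score group and 4.32, 4.62 and 4.98 in the low score group. No high score array reached the low score group, and the difference was -1.02 ± 0.15 (limma adjusted p = 0.0018). TP63, a p53 relative, had 4.10, 4.50 and 4.96 in the high score group and 5.15, 5.31 and 5.57 in the low score group, a difference of -0.86 ± 0.14 (limma adjusted p = 0.0036). KCTD6, an adaptor of a ubiquitin ligase in muscle, and SNX6, a sorting nexin, differed by -0.80 ± 0.13 and -0.79 ± 0.14 (limma adjusted p = 0.0036 and 0.0080). In the high score group the means of VPS13A (3.63), SNX6 (3.63) and RCHY1 (3.38) were at or below the mean background signal of 3.64 and that of KCTD6 (3.88) close to it, so these differences rest on dim signals. SOS1, the exchange factor that activates RAS, differed by -0.68 ± 0.12 and MPDZ, a scaffold of cell junctions, by -0.56 ± 0.10 (limma adjusted p = 0.0090 and 0.0082). PDCL3, a cochaperone, and VTA1, a cofactor of the ESCRT machinery, differed by -0.59 ± 0.11 and -0.54 ± 0.10 (limma adjusted p = 0.0075 and 0.011). The groups of all 8 genes lay apart, as they did on the lower side for 22 of all tested genes (0.18%). The 8 were picked by small p on the same arrays, which favours groups that lie apart.

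The other lower genes of smallest p had overlapping groups. PBRM1, a chromatin remodelling subunit, differed by -0.69 (limma adjusted p = 0.0036), YIPF7 by -0.64 (0.0092), PDRG1 by -0.60 (0.0099) and MLLT10, a partner of the histone methyltransferase DOT1L, by -0.58 (0.014). Several of these signals were dim, and 1 of 3 probe sets of TP63, 1 of 2 of PDCL3, 1 of 5 of PBRM1 and 2 of 6 of MLLT10 had the opposite sign. A second PBRM1 probe set almost as bright (mean 4.12 against 4.39) differed by only -0.028. Larger in size were CACNA2D1, a calcium channel subunit (-1.005 ± 0.24), ATL2, which fuses membranes of the endoplasmic reticulum (-0.98 ± 0.21), FRZB, a secreted WNT antagonist (-0.94 ± 0.23) and RCHY1, a ubiquitin ligase (-0.93 ± 0.20). Their limma adjusted p were 0.042, 0.022, 0.046 and 0.024. CACNA2D1, FRZB and RCHY1 lost their calls without any single one of 10, 9 and 7 arrays (limma adjusted p of up to 0.092, 0.097 and 0.058), and ATL2 without high RFI replicate 2 (0.0546) or low RFI replicate 1 (0.0501). TRPM8 and OCLN had the largest negative differences of those named, -1.90 ± 0.33 and -1.20 ± 0.21 (limma adjusted p = 0.0064 and 0.0075), but both lie below the background signal on average, which keeps them outside the rule for naming. They were chosen after their values were seen.

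Mitochondrial and glycogen enzymes gave 3 calls, all lower, and none was kept with values as deposited or without the 4 arrays of highest background. SUCLA2, a subunit of succinyl-CoA synthetase, had 5.83, 6.45 and 6.78 in the high score group and 6.69, 7.23 and 7.60 in the low score group, a difference of -0.83 ± 0.17 with a slight overlap (limma adjusted p = 0.020). DLD, the dihydrolipoyl dehydrogenase shared by several mitochondrial complexes, had 5.39, 5.76 and 6.02 in the high score group and 6.04, 6.32 and 6.57 in the low score group, a difference of -0.58 ± 0.12 without overlap (limma adjusted p = 0.024). These were the 2 calls among 16 genes of the TCA cycle (12.5%, against 0.508% of all genes called lower), of which 6 had a positive difference, and the median was -0.07. PPP1R3A, the glycogen-targeting phosphatase subunit of muscle, differed by -0.83 ± 0.18 (limma adjusted p = 0.020) and was the call among 19 genes of glycolysis and glycogen (5.26%). Among 24 genes of fatty acid uptake and oxidation none was called by limma and 3 had an unadjusted p under 0.05, and CD36, the fatty acid transporter, differed by -0.82 ± 0.23 (limma adjusted p = 0.079). The sarcomere proteins CMYA5 and LMOD3 were lower too (-0.81 ± 0.17 and -0.85 ± 0.20, limma adjusted p = 0.020 and 0.039), both chosen after their values were seen. SUCLA2 and CMYA5 lost their calls without high RFI replicate 2 (0.051 and 0.052), DLD without any of high RFI replicates 1, 9 and 10 and low RFI replicate 8 (up to 0.054) and LMOD3 without any single one of 9 arrays (up to 0.080). None of 38 cytosolic ribosomal protein genes was called by limma, with 3 at an unadjusted p under 0.05.

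Among the marker lists of fibre types and other cells, 1 gene was called. Fast fibre genes averaged 12.18 to 12.46 in the high score group, against 12.19 to 12.42 in the low score group, and slow fibre genes 8.25 to 9.72 against 8.55 to 9.85, with 0 calls by limma among 13 and 11 and 0 and 1 genes at an unadjusted p under 0.05. Endothelial genes averaged 5.45 to 5.79 against 5.42 to 5.59. CLDN5, a tight junction protein of endothelium, was the only call among 14 (7.14%, against 1.02% of all genes called higher). It differed by 0.57 ± 0.14 (limma adjusted p = 0.048), while 12 of the 14 genes had a positive difference and 4 an unadjusted p under 0.05. At the share of all genes, lists of this size would mostly hold no call, so a list without calls says little about a cell type. CLDN5 lost that call without any single one of 11 arrays (up to 0.098). Macrophage genes averaged 5.05 to 5.45 against 5.06 to 5.60 with no limma call among 13 and 3 at an unadjusted p under 0.05, the closest being CD14 (0.56 ± 0.14, limma adjusted p = 0.054). Genes of fibroblasts and tendon averaged 6.75 to 7.18 against 6.71 to 7.15, of adipocytes 5.55 to 6.87 against 5.91 to 6.64, and of smooth muscle and pericytes 6.37 to 6.70 against 6.40 to 6.75. Red blood cell genes, below the background signal for 4 of 5, averaged 3.02 to 3.54 against 3.06 to 3.53. Satellite cell genes leaned higher, at 5.32 to 5.76 against 5.08 to 5.50 (median difference 0.21, 7 of 8 positive), and so did all 10 genes of nerve and Schwann cells, at 4.90 to 5.10 against 4.70 to 4.95 (median 0.14). Limma called no gene in these 6 lists or among T, B, neutrophil and mast cell genes, and at most 3 genes of any of these lists had an unadjusted p under 0.05. The part of these cells in the calls was not tested.

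**Figure D4:**
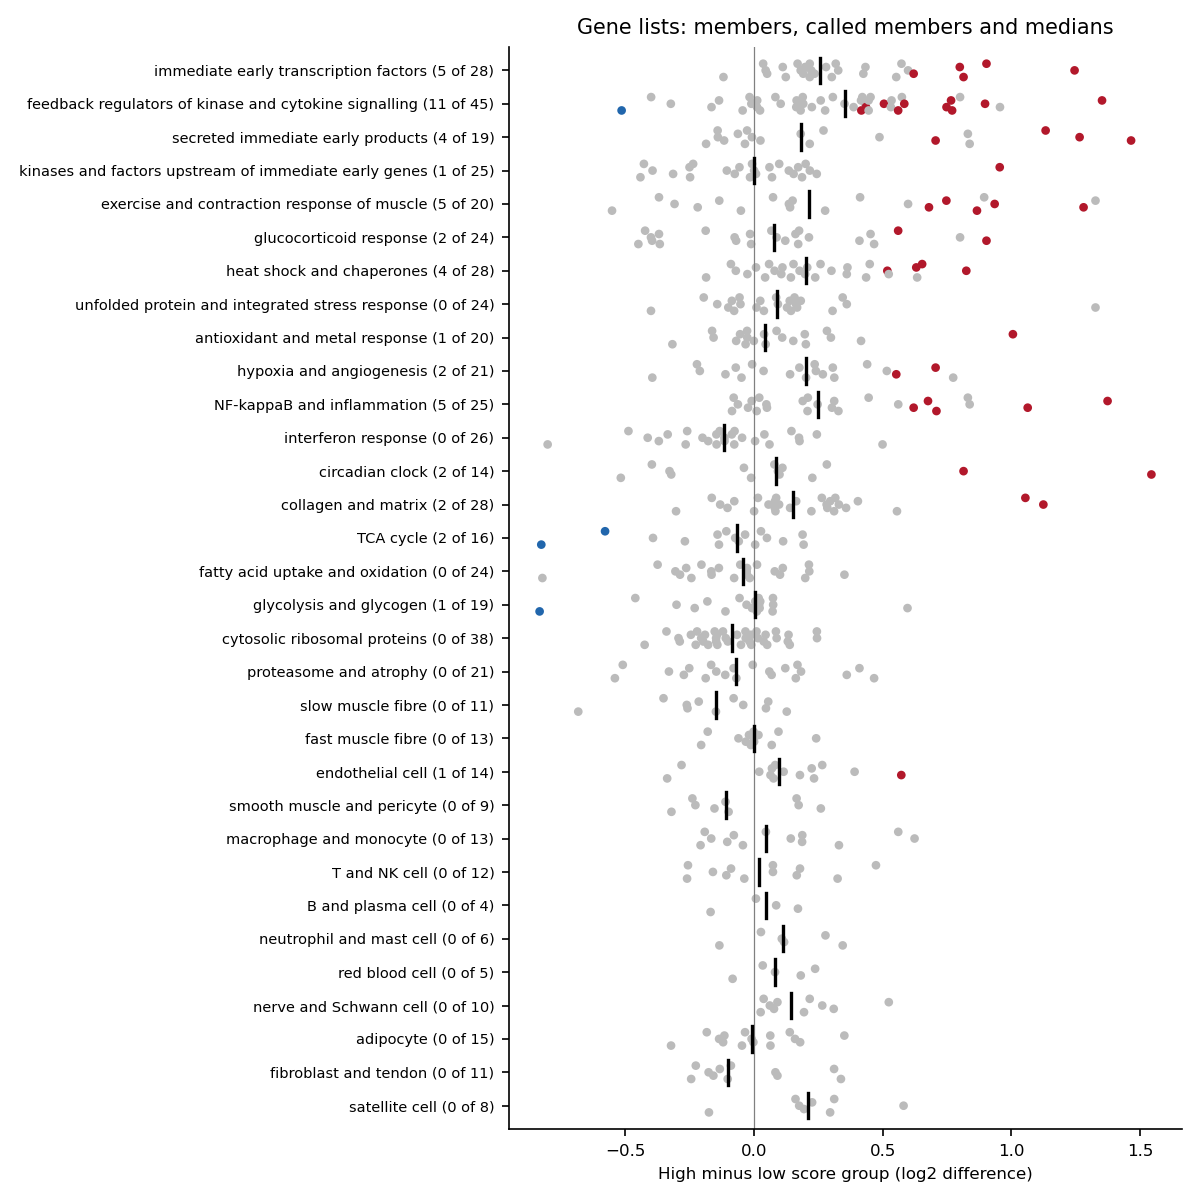
Log2 difference, high minus low score group, of every tested member of 32 gene lists (points; red called higher, blue called lower, grey not called) with the list median (black bar). Numbers in brackets give called of tested genes; the feedback list holds 11 calls of 45, the contraction list 5 of 20 and the TCA cycle list 2 of 16, both lower, and the cell type lists hold 1, CLDN5.

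The contrast was then read within each RFI group. No gene was called by limma within low RFI, where 4 high score arrays stood against 4 low score arrays (0%, 983 genes at an unadjusted p under 0.05, smallest adjusted p 0.090), nor within high RFI with 3 against 3 (0%, 1230 genes, smallest adjusted p 0.094). A test of the difference between the 2 contrasts also called no gene (0%, 402 genes at an unadjusted p under 0.05, smallest adjusted p 0.999). All 125 called higher genes and all 62 called lower genes had the same sign in both RFI groups, which is no independent support because the same arrays made the pooled calls. An unadjusted p under 0.05 was reached by 122 of the 125 within low RFI and by 116 within high RFI, and by 59 and 52 of the 62 lower genes. Over all 12203 tested genes it was reached by 983 and 1230. These counts of called genes are no independent support either, since the genes were picked on the same arrays. Medians of some lists were uneven: contraction genes had 0.50 within low RFI and 0.01 within high RFI, heat shock genes 0.10 and 0.32, and immediate early transcription factors 0.27 and 0.21, differences that were not tested for the lists.

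For some called genes the differences in the RFI groups were close in value. CSRNP1 differed by 1.21 within low RFI and by 1.29 within high RFI, SOCS3 by 1.35 and 1.36, THBS1 by 1.29 and 1.23 and OSMR by 1.36 and 1.40. HSPB1 differed by 0.62 within low RFI and by 0.64 within high RFI, and VPS13A by -1.02 and -1.03. Others were less even: ARID5B differed by 1.21 within low RFI and by 0.57 within high RFI, VEGFA by 0.91 and 0.43, and RCHY1 by -0.54 and -1.46. NR4A3, which did not pass, differed by 1.03 within low RFI and by 0.02 within high RFI. In the test of the difference between the contrasts none of these 10 genes passed (limma adjusted p = 0.999 for each).

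**Figure D5:**
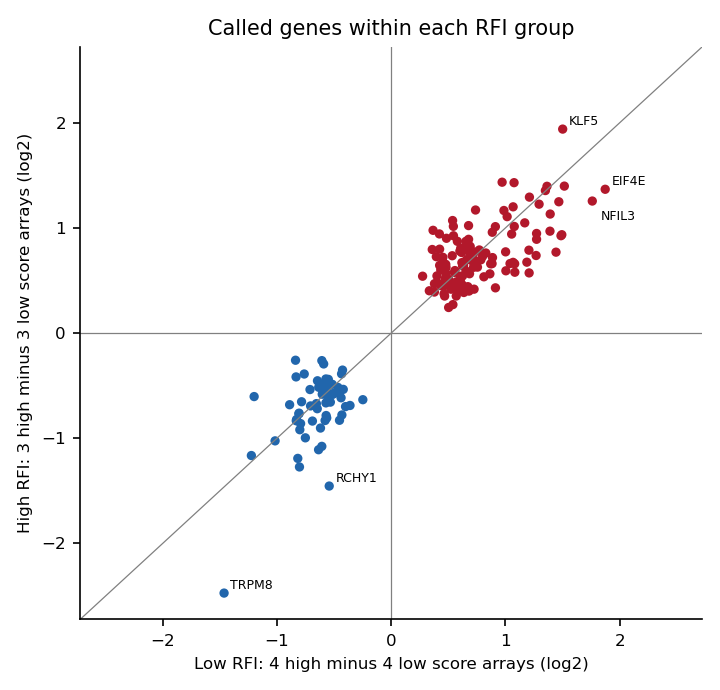
Log2 difference of each of the 187 called genes within low RFI (x axis, 4 high minus 4 low score arrays) and within high RFI (y axis, 3 high minus 3 low score arrays), with called higher genes red, called lower genes blue and the line of equal values in grey. All points fall in the upper right or lower left quadrant; RCHY1 (-0.54 and -1.46) is among the points farthest from the line.

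The 6 arrays between the groups were read for 4 of the called genes. CSRNP1 averaged 7.26 in the high score group, 6.90 in the arrays between and 6.02 in the low score group. SOCS3 averaged 7.24, 7.13 and 5.89, XIRP1 11.96, 11.86 and 10.68, and NFIL3 6.93, 6.50 and 5.39 in the same order. For these 4 genes, which are examples only, the arrays between lay nearer to the high score group. Other called genes went the other way. HSPB1 averaged 11.14, 10.77 and 10.51 and BAG3 9.18, 8.59 and 8.35 in the same order, nearer to the low score group. With the score as a continuous measure over all 20 arrays, limma called 138 genes, 101 with a positive and 37 with a negative slope, and 101 of them were also among the 187.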

How the data were processed

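The authors deposited 1 log2 signal per probe set for 47845 probe sets on each of 20 arrays, and the log2 scale was read from the values. GCOS 1.1.1 is named, per the submitters' processing notes, and the summary of probes and the normalization are not described in the labels. Symbols came from the platform annotation: 26426 probe sets had 1 symbol and 21419 none here, 446 symbols were updated through synonyms, and 13567 of 13664 genes were found in the RefSeq gene table. No array carried a label of batch, date or pairing. The array number limits the precision.

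For each gene the residual on the array mean of 69 background control probe sets was kept over 20 arrays and the gene mean added back. Genes with a mean above the 30th percentile of non-control probe sets (1.75) were tested, 12203 in all, without the score genes, in R 4.3.3 by limma 3.58.1 with lmFit, eBayes, 2-sided p-values and Benjamini-Hochberg adjustment over all of them. Of these, 70.5% lay above the mean background signal, and 16 called genes did not. Figures and permutation tests used Python 3.11.15, SciPy 1.17.1 and matplotlib 3.10.9, and the limma steps were tested on simulated data.

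Genes named in the text came from a rule: above background with a gene symbol, the 12 of smallest p in each direction, up to 4 members of each of 32 lists by p, the 5 called genes of largest difference in each direction, and every called member of the immediate early lists. Genes outside it are marked as chosen after their values were seen. The members, lists and tests were chosen with earlier results of these data known. The alternatives were other filters, background adjustments, scores, normalization, array weights, all probe sets, an RFI term, the slope and single arrays left out.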

Additional observations from a re-analysis of the deposited data

Results flagged for a closer look

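In 200 sets of 7 values, the high and the low score group for each gene named and for the score genes, the highest or lowest array stood apart from the others by a gap that chance gives in about 1 of 20 sets, and 16 did so, 7 in the high and 9 in the low score group. In the high score group, ATF3 was low in low RFI replicate 10 (10.36, next 11.02), as was DUSP1 (8.81, next 9.24), while VEGFA was high in the same array (9.90, next 9.24). High RFI replicate 4 was high for FOSB (5.92, next 5.16) and low for KLF4 (5.02, next 5.26), high RFI replicate 5 was high for NFKBIA (8.02, next 7.63), and low RFI replicate 3 was high for ERRFI1 (9.63, next 9.43).

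In the low score group, low RFI replicate 9 was high for TIMP1 (7.14, next 6.59) and low for TRIM63 (7.73, next 8.27). Low RFI replicate 1 was high for DCLRE1B (5.32, next 4.90) and VTA1 (5.58, next 5.32) and low for SGK1 (5.44, next 5.87). PPP1R15A was low in high RFI replicate 10 (5.95, next 6.45), CCL2 in high RFI replicate 1 (3.51, next 4.55), NR4A3 in low RFI replicate 5 (6.12, next 7.16) and MLLT10 in low RFI replicate 7 (4.27, next 4.69). These gaps were spread over 10 arrays, with at most 3 on any array.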

How the results depend on the processing

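Against 187 calls (125 higher, 62 lower) limma gave 34 (34 higher, 0 lower) from values as deposited, 3 (3 and 0) without the 4 arrays of highest background, 60 (45 and 15) after cyclic loess, and 14 (12 and 2), 1 (0 and 1) and 56 (52 and 4) with the score without FOS, JUNB or ATF3. Alternatives chosen after seeing the data gave 0 with FOS alone (1177 genes at an unadjusted p under 0.05) and 0 with ATF3 alone (1136), 67 with JUNB alone and 96 without both arrays of lowest ATF3. Leaving out single arrays gave 114 to 239. The other settings gave 136 to 251. Of the 187 genes, those tested kept their sign in these alternatives (132 were tested with a mean of at least 5), except 186 with values as deposited, 162 with FOS alone and 186 with ATF3 alone, and over all probe sets, where signs were not compared. The alternatives reused many of the arrays on which these genes were picked, so a kept sign is little support. Within low RFI the 0 became 12 with genes of a mean of at least 5, 1 with background as a covariate, 1 without FOS in the score and 2 with array weights. Within high RFI it became 2 with a mean of at least 5, 1 without FOS, 1 without ATF3 and 1 without both arrays of lowest ATF3. The 138 slopes became 59 as deposited, 81 without the 4 arrays, and 68, 29 and 58 without FOS, JUNB or ATF3. Of 78 called genes named, 60 kept their call whichever array was left out.

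Of 2984 values of single genes, 2213 kept their direction and side of the threshold, 724 lost and 21 gained a call, and 26 changed sign. With the score from FOS alone the differences were ADAMTS4 -0.016, SDC4 -0.0098, OSMR -0.020, SOCS3 -0.14, DUSP5 -0.049, NFIL3 -0.16, CEBPD -0.015, RRAD -0.20, PTX3 -0.089, IL6R -0.091, ARID5B -0.30, KLF5 -0.18, VEGFA -0.094, XIRP1 -0.25, EIF4E -0.50, TRIM63 -0.098, NR4A3 -0.48, KLF6 -0.050, MAFF -0.078, IL1R1 -0.079 and TNFRSF1A -0.034. From ATF3 alone they were VEGFA -0.071, TRIM63 -0.11, NR4A3 -0.018 and KLF6 -0.052, and NR4A2 was 0.0020 without the 4 arrays. The cause was not tested. A score without EGR1 was not run because EGR1 has no annotated probe set. No paired analysis was possible because replicate numbers were given for naming only. Of 94 list medians 91 moved little, and with a mean of at least 5 that of secreted products was 0.77, of inflammation 0.45 and of T and NK cells 0.14.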
